A study of Mus musculus with 6 samples.

Results

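The genes described here are 10 members of the AP-1 and immediate early class, Fos, Fosl2, Jun, Junb, Jund, Jdp2, Egr1, Klf6, Ier2 and Maff, chosen by gene symbol from a table of 23420 genes. All 10 passed the filter on low counts, which kept 13168 genes. Read counts came from RNA sequencing of whole proximal jejunum, the middle stretch of the small intestine. There were 6 libraries, 3 from ob/ob mice and 3 from C57BL/6J wild type (WT) mice, and each library pooled RNA of 2 jejuna. The ob/ob mice lack functional leptin, the satiety hormone of fat cells, in every tissue and from birth, and they overeat and become obese. The study's methods describe male mice, fasted before sacrifice unless stated otherwise, and do not call the WT mice littermates. No source used here states how old the sequenced mice were. The effects of leptin loss, of overeating and of obesity cannot be told apart in this pair of groups.

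AP-1 is a dimer of basic leucine zipper (bZIP) proteins of the Jun and Fos families. Its genes are among the first to be transcribed when a growth factor, stretch, stress or tissue handling activates kinases such as ERK, JNK and p38, and this response needs no new protein, hence the name immediate early. Many of the transcripts are very short-lived, whereas Jund and Klf6 are also expressed steadily in resting tissue. In the intestinal epithelium, Jun family proteins are known for roles in crypt cell proliferation and regeneration.

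The libraries held 14661981 to 18286080 counts. Values are given as CPM, the count relative to the library total, scaled with the trimmed mean of M-values (TMM). Before TMM scaling, 3 counts equal 0.164 to 0.205 CPM. Enterocyte marker genes summed to 63500 to 70100 CPM in ob/ob and 50700 to 59800 CPM in WT, with 10 of 10 markers measured, and 6 of 11 genes of other organs were at 0 in all libraries. Of the WT libraries, WT 1 stood apart in leukocyte genes (11 markers in the table, 336 CPM against 154 to 201 CPM in the other 5 libraries), and 65.9 CPM of this came from 4 B cell genes, which summed to 6.59 to 30.2 CPM elsewhere. WT 2 stood apart in fat cell genes (313 CPM against 93.4 to 113 CPM). Endothelial markers summed to 80.1 to 93.3 CPM in ob/ob and 101 to 113 CPM in WT, fibroblast markers to 328 to 390 and 411 to 434 CPM. Smooth muscle markers (553 to 797 and 637 to 945 CPM) and nerve and glia markers (10.3 to 12.4 and 11.8 to 16.7 CPM) overlapped between groups. The part of these cell types in the results below was not tested. In bulk tissue, more cells of a type and more RNA per cell cannot be told apart.

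Of the 10 genes, 4 were higher in ob/ob jejunum, namely Jdp2, Klf6, Jun and Jund, and 0 were lower (edgeR quasi-likelihood test, Benjamini-Hochberg adjusted p under 0.05 over all tested genes). Over all 13168 tested genes, 3.77% were higher and 1.91% lower, or 5.67% in either direction. The median log2 fold change (ob/ob minus WT) was 0.34 over the 10 genes and -0.01 over all tested genes. In 7 of the 10 every ob/ob library lay above every WT library, a pattern found in 15.8% of all tested genes, and in 0 of the 10 every ob/ob library lay below, against 16.2% of all tested genes (32.0% for either direction). No alternative test or threshold called a member lower, including DESeq2 and an unadjusted p of 0.05. The remaining genes, Junb, Egr1 and Ier2, overlapped between the groups. The genes therefore did not move as one block, and they are described by role below.

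**Figure D1:**
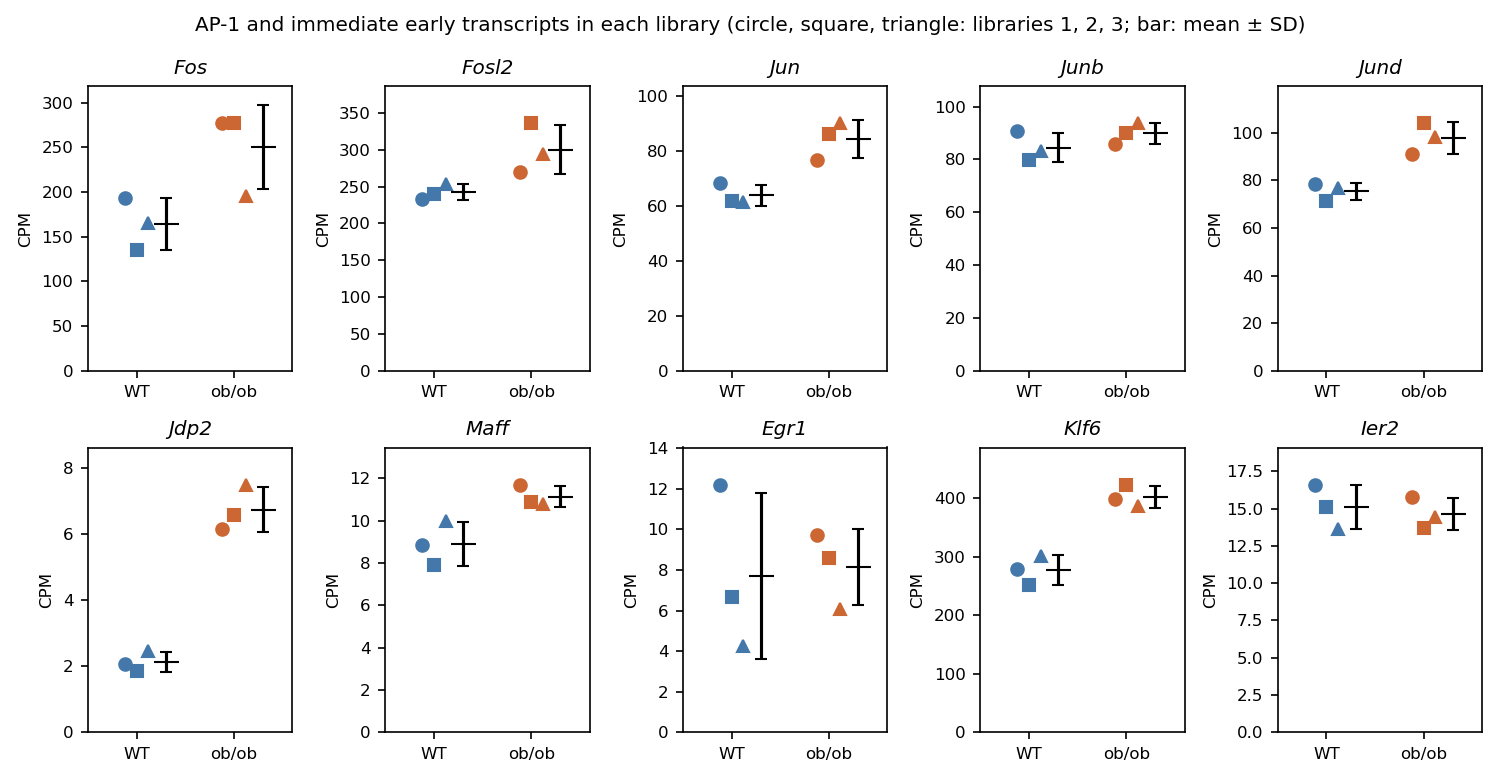
CPM of each of the 10 genes (vertical axis, from 0) in the 3 WT and 3 ob/ob libraries. Circles, squares and triangles are libraries 1, 2 and 3, and the bars give mean ± SD. Jdp2, Klf6, Jun and Jund separate with room between the groups, Fos separates only narrowly (196 against 193 CPM), and Junb, Egr1 and Ier2 overlap.

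The promoters of Jdp2, Klf6 and Jun, which passed the test, and of Fos and Junb, which did not, are printed as examples, to show which of them carry a site of the AP-1 and CREB type close to the start. Each line is the 130 bases before the transcription start, read 5′ to 3′ on the strand of the gene, from RefSeq on GRCm38.p6. Capitals mark TGACNTCA, an 8-base site bound by Jun and ATF dimers, or TGACGT, the 6-base core of the cyclic AMP response element. Jund, which also passed, is not printed, and its RefSeq start lies apart from the GENCODE gene start used for its position. The printed starts of Klf6, Junb and Jdp2 also differ from the GENCODE gene starts. The difference is largest for Jdp2, whose window lies inside the gene span given below. Jdp2 has 3 starts in the table, and the one shown is the start with a match.
Fos, chr12:85473760-85473889, plus strand: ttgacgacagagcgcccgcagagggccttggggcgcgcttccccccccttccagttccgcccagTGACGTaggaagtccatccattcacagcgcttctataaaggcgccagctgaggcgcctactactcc
Jun, chr4:95052223-95052352, minus strand: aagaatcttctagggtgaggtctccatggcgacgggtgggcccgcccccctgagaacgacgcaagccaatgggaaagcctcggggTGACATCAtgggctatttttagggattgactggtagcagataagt
Klf6, chr13:5861359-5861488, plus strand: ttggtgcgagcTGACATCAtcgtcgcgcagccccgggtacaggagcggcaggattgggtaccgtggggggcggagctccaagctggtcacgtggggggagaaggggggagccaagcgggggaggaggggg
Jdp2, chr12:85599286-85599415, plus strand: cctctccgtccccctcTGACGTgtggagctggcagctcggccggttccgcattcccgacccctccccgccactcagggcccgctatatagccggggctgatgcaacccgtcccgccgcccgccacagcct
Junb, chr8:84978749-84978878, minus strand: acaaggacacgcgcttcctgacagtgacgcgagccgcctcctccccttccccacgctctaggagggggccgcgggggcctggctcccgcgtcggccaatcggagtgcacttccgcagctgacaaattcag
In the full windows, from 250 bases before to 50 after the start, 8 of the 10 genes were matched (not Egr1 and Ier2), with 12 promoters. TGACNTCA, which includes TGACGTCA, was found on either strand in 3 genes, with its first base at -45 in Jun, at -119 in Klf6, and at -29 and -45 in separate promoters of Maff. Counted by promoter, it occurred in 4 of the 12, against 8.83% of all 32851 promoters of this length. TGACGT, which overlaps the longer site in Maff, was found in Fos (first base at -66), Jdp2 (-114) and Maff. This was 3 of the 12 promoters, against 7.51% of all promoters. Within these windows the AP-1 heptamer TGANTCA was found in 0 of the 8 genes (7.81% of all promoters), as was the CArG box of serum response factor (1.63%). Sites more than 250 bases before the start were not searched, nor was any promoter of Egr1 or Ier2. The 0 therefore does not show that the genes lack such sites. These matches describe letters only and were not tested against expression.

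Jdp2 encodes a bZIP protein that pairs with Jun and mostly represses AP-1 and ATF targets. It lies at chr12:85599027-85639878 (GRCm38), and Fos lies on the same strand with its end 122 kb before the start of Jdp2. Jdp2 was measured at 6.16, 6.57 and 7.50 CPM in the ob/ob libraries and 2.08, 1.85 and 2.45 CPM in the WT libraries, from 100, 108 and 126 against 37, 28 and 46 counts. Every ob/ob library was far above every WT library. With means of 6.74 ± 0.688 CPM for ob/ob and 2.13 ± 0.302 CPM for WT (SD, n = 3), Jdp2 was 3.15-fold higher, or 1.65 ± 0.17 on the log2 scale (SE), and passed the test (edgeR adjusted p = 0.00445). Jdp2 had the largest fold change of the 10 genes from one of their lowest levels. Leaving out any 1 library kept it past the threshold, at log2 fold changes of 1.57 to 1.77. A noncoding gene on the opposite strand, Gm47863, overlaps its gene span, and the strand setting of the counting is unknown. Overlap of exons was not examined, so whether reads of the pair were mixed in the counts is not known. This also holds for the overlaps of Jun, Jund and Junb given below.

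Jun encodes c-Jun, the classical Jun partner of Fos, and lies at chr4:95049034-95052222 (GRCm38) on the minus strand as a single exon, where it meets the antisense gene Junos. Its values were 76.8, 86.1 and 90.1 CPM in ob/ob and 68.2, 61.9 and 61.3 CPM in WT libraries. The groups did not overlap, and the nearest libraries, ob/ob 1 and WT 1, were closer together than the group means. Mean Jun levels were 84.3 ± 6.84 CPM for ob/ob and 63.8 ± 3.84 CPM for WT (SD, n = 3), and the difference of 0.40 ± 0.08 on the log2 scale (SE) passed the test (edgeR adjusted p = 0.022). The direction was the same with any 1 library left out (0.35 to 0.47), but the adjusted p missed the threshold without ob/ob 2 (0.0861), ob/ob 3 (0.0712), WT 2 (0.0601) or WT 3 (0.0546).

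Jund encodes JunD, the Jun protein most abundant in resting cells, and lies at chr8:70698949-70700616 (GRCm38), overlapped by the antisense gene Gm11175. It was measured at 91.0, 104 and 98.3 CPM in ob/ob and 78.3, 71.5 and 76.7 CPM in WT libraries. All 3 ob/ob libraries were higher than all WT libraries. Mean Jund levels were 97.8 ± 6.63 CPM for ob/ob and 75.5 ± 3.54 CPM for WT (SD, n = 3), and the difference of 0.37 ± 0.07 on the log2 scale (SE) passed the test (edgeR adjusted p = 0.0197). The values with 1 library left out ranged from 0.32 to 0.42, and the adjusted p missed the threshold without ob/ob 2 (0.076), ob/ob 3 (0.0653) or WT 2 (0.0557).

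Junb encodes JunB, which often opposes c-Jun in proliferation, and its gene span, chr8:84974484-84978718 (GRCm38), meets Prdx2 on the opposite strand. The values were 85.9, 89.8 and 93.7 CPM in ob/ob and 90.6, 79.7 and 83.1 CPM in WT libraries. WT 1 was above 2 of the ob/ob libraries. The difference of 0.09 ± 0.07 on the log2 scale (SE) did not pass (edgeR adjusted p = 0.439), and it took the other sign, at -0.03, when libraries were scaled by size alone.

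The total of the Jun family, and each gene's share of it, did not overlap between the groups. Per kilobase of exon, which allows levels of different genes to be compared, Jun, Junb and Jund together gave 126, 139 and 139 CPM per kb for ob/ob against 118, 106 and 111 for WT libraries. Jund and Junb held similar shares in WT, and Jun the smallest share in every library. The share of Junb was 37.6, 35.7 and 37.3% for ob/ob against 42.3, 41.4 and 41.4% for WT libraries, lower in every ob/ob library. The share of Jund was 42.4 to 44.9% and 39.6 to 41.4%, and that of Jun 19.1 to 20.3% and 17.3 to 18.3%, each higher in every ob/ob library. The ratio of 2 transcripts within a library does not depend on the scaling between libraries. The count ratio of Jund to Junb was 1.06, 1.16 and 1.05 for ob/ob against 0.864, 0.897 and 0.922 for WT libraries. For Jun to Junb it was 0.894, 0.959 and 0.962 against 0.753, 0.777 and 0.737. Neither ratio overlapped between the groups, and with 3 libraries against 3 no further test of these ratios was made. Among single tested genes, 32.0% did not overlap in either direction. The shares and ratios use the same counts as the values above, so they are no separate evidence. The opposite-strand overlaps of Jun, Junb and Jund apply to them too.

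**Figure D2:**
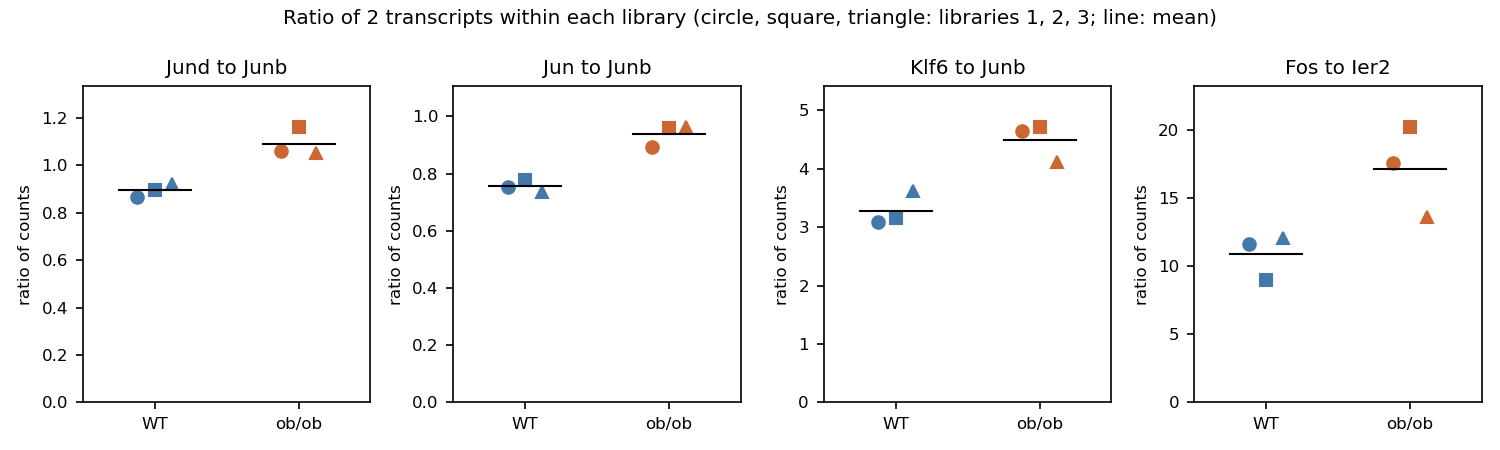
Ratio of the counts of 2 transcripts within each library (vertical axis, no unit, from 0) for WT and ob/ob. Symbols are libraries 1, 2 and 3 and lines are group means. Each ratio drawn is higher in all 3 ob/ob libraries, for example Jund to Junb at 1.05 to 1.16 against 0.864 to 0.922. The ratios that overlapped between the groups are not drawn. These are Fos to Egr1 and Fos to Fosl2 (1.03, 0.826 and 0.668 for ob/ob against 0.826, 0.563 and 0.651 for WT).

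Fos encodes c-Fos, which binds DNA only as a dimer with a Jun protein, and lies at chr12:85473890-85477273 (GRCm38). It was measured at 277, 277 and 196 CPM in ob/ob and 193, 135 and 165 CPM in WT libraries. The ob/ob libraries were uneven, since ob/ob 3 lay next to WT 1 and far under the other ob/ob libraries. The means were 250 ± 46.8 CPM for ob/ob and 164 ± 28.7 CPM for WT (SD, n = 3), and the log2 fold change of 0.61 ± 0.16 (SE) missed the threshold (edgeR adjusted p = 0.0544). It was past the threshold without ob/ob 3 (0.75, adjusted p = 0.0369) and without WT 1 (0.74, adjusted p = 0.0303). It was not past it without ob/ob 1 (0.53, adjusted p = 0.163), ob/ob 2 (0.52, 0.154), WT 2 (0.48, 0.123) or WT 3 (0.61, 0.095). Fos passed with DESeq2 (adjusted p = 0.00057) and the edgeR likelihood ratio test (adjusted p = 0.00607), and with no filter beyond 1 count (adjusted p = 0.0308). The call of Fos therefore depends on the test, on the filter and on single libraries. Its log2 fold change was larger than that of Jun, Jund or Klf6, but so was its error.

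Fosl2 encodes Fra-2, a longer-lived Fos family protein, and lies at chr5:32135801-32157842 (GRCm38). The values were 270, 336 and 294 CPM in ob/ob and 233, 240 and 254 CPM in WT libraries. The groups did not overlap, although ob/ob 1 was near WT 3. The difference of 0.31 ± 0.08 on the log2 scale (SE) missed the threshold (edgeR adjusted p = 0.0622), and Fosl2 passed the threshold with DESeq2 (adjusted p = 0.0145) and the likelihood ratio test (adjusted p = 0.029). Per kilobase, Fos made up 67.0 to 75.6% of the Fos family total in ob/ob and 63.4 to 71.6% in WT libraries, which overlapped. That total was 174, 184 and 139 CPM per kb for ob/ob against 128, 101 and 117 for WT libraries.

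Maff encodes a small Maf protein, a bZIP protein without an activation domain, and lies at chr15:79346621-79359076 (GRCm38). Its values were 11.7, 10.9 and 10.8 CPM in ob/ob and 8.85, 7.91 and 9.99 CPM in WT libraries. The ob/ob libraries were close together and all above WT. The log2 fold change of 0.32 ± 0.12 (SE) did not pass the threshold (edgeR adjusted p = 0.128).

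Klf6 encodes a zinc finger factor of the Krüppel-like family that is induced early after injury, and lies at chr13:5861482-5870394 (GRCm38). It was measured at 399, 423 and 386 CPM in ob/ob and 279, 251 and 301 CPM in WT libraries. The lowest ob/ob library was well above the highest WT library. Mean Klf6 levels were 403 ± 18.8 CPM for ob/ob and 277 ± 25.2 CPM for WT (SD, n = 3), and the difference of 0.54 ± 0.08 on the log2 scale (SE) passed the test (edgeR adjusted p = 0.0107). Klf6 stayed past the threshold whichever library was left out, at 0.48 to 0.61. Relative to Junb within each library, Klf6 counts were 4.65, 4.71 and 4.12 for ob/ob against 3.08, 3.15 and 3.62 for WT libraries, again with no overlap.

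Egr1 encodes a zinc finger factor that is among the most rapidly induced early genes. It was measured at 9.73, 8.57 and 6.07 CPM in ob/ob and 12.2, 6.66 and 4.25 CPM in WT libraries. WT 1 was the highest and WT 3 the lowest of all 6 libraries, so the whole ob/ob range lay inside that of WT. The coefficient of variation in WT was 52.8%, against 4.25 to 17.5% for the other 9 genes. The difference was 0.08 ± 0.34 on the log2 scale (SE) and far from the threshold (edgeR adjusted p = 0.907), and it moved to 0.59 without WT 1 and to -0.22 without WT 3, so that neither a rise nor a fall of this gene was measurable here.

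Ier2 encodes a small nuclear protein induced by growth factors, and lies at chr8:84661331-84662852 (GRCm38). The values were 15.8, 13.7 and 14.4 CPM in ob/ob and 16.6, 15.1 and 13.6 CPM in WT libraries. The groups overlapped over almost their whole range. The difference of -0.04 ± 0.10 on the log2 scale (SE) did not pass (edgeR adjusted p = 0.824), with a much smaller error than that of Egr1. Within libraries, the Fos to Ier2 count ratio was 17.6, 20.2 and 13.6 for ob/ob against 11.6, 8.96 and 12.1 for WT libraries, which did not overlap, whereas Fos to Egr1 (28.5, 32.3 and 32.3 against 15.8, 20.3 and 38.8) did.

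**Figure D3:**
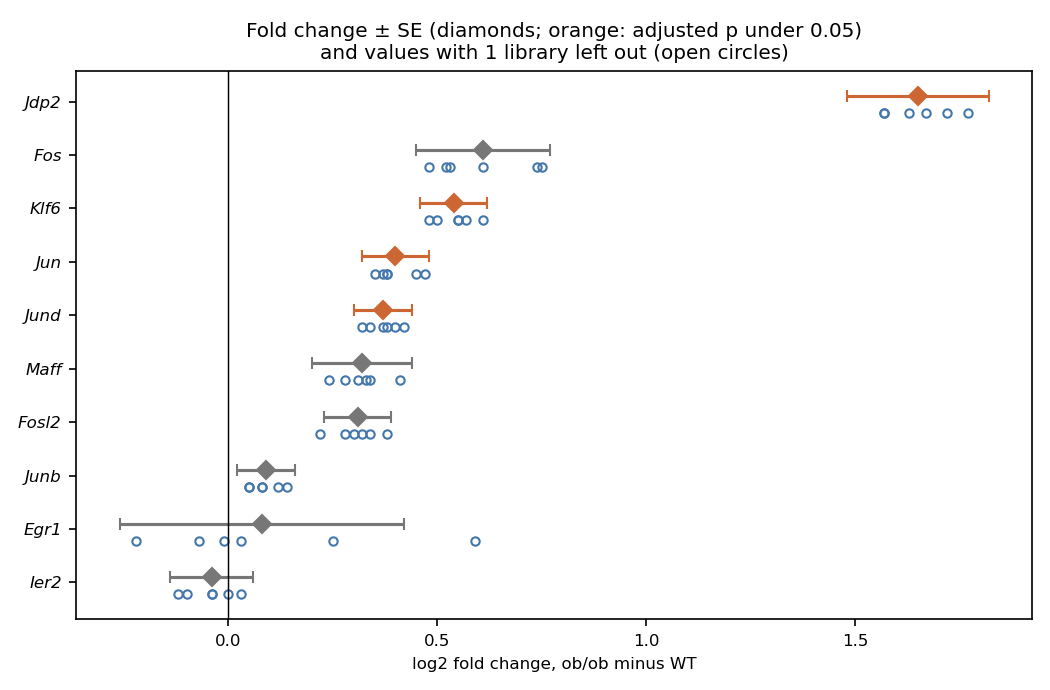
Log2 fold change of each gene (horizontal axis, ob/ob minus WT), with diamonds for all 6 libraries and SE as bars, orange where the edgeR adjusted p was under 0.05. Open circles are the values with 1 library left out; those of Jdp2 stay between 1.57 and 1.77, while those of Egr1 run from -0.22 to 0.59.

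By level per kilobase, Fos (119 CPM per kb in ob/ob and 77.9 in WT) and Klf6 (95.4 and 65.5) were the most abundant of the 10 genes, followed by Jund (58.6 and 45.3), Junb (49.6 and 46.7), Fosl2 (45.9 and 37.1) and Jun (26.4 and 20). Jund, Junb and Fosl2 were close neighbours in this order, and in WT Jund (45.3 ± 2.12) and Junb (46.7 ± 3.08, SD, n = 3) did not differ beyond their spread. Ier2 (9.62 and 9.91), Maff (4.85 and 3.89), Jdp2 (3.44 and 1.08) and Egr1 (1.81 and 1.72) were lower. Jdp2 was above Egr1 in every ob/ob library, while in WT the 2 genes did not differ beyond their spread (1.08 ± 0.154 and 1.72 ± 0.905 CPM per kb, SD, n = 3).

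The genes were also followed library by library. WT 1, the library with more leukocyte and B cell RNA, was the highest of the WT libraries for 6 of the 10 genes (Fos, Jun, Junb, Jund, Egr1 and Ier2), compared with 33.3% of all tested genes. Without WT 1, 5 of the 10 genes were higher, with Fos added to the 4. The same library was the highest of WT for 19 of 28 other immediate early genes that were tested. Nr4a1 and Klf2, chosen after their values were seen, fell from WT 1 to WT 3 as Egr1 did. Nr4a1 was 3.49, 1.91 and 1.28 CPM and Klf2 3.66, 1.91 and 1.59 CPM in WT 1, 2 and 3. The ob/ob libraries lay at 1.25 to 2.09 CPM for Nr4a1 and 1.85 to 2.20 CPM for Klf2. From ob/ob 1 to ob/ob 3, Klf2 rose slightly while Egr1 fell. The part of leukocyte RNA in these values was not tested.

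**Figure D4:**
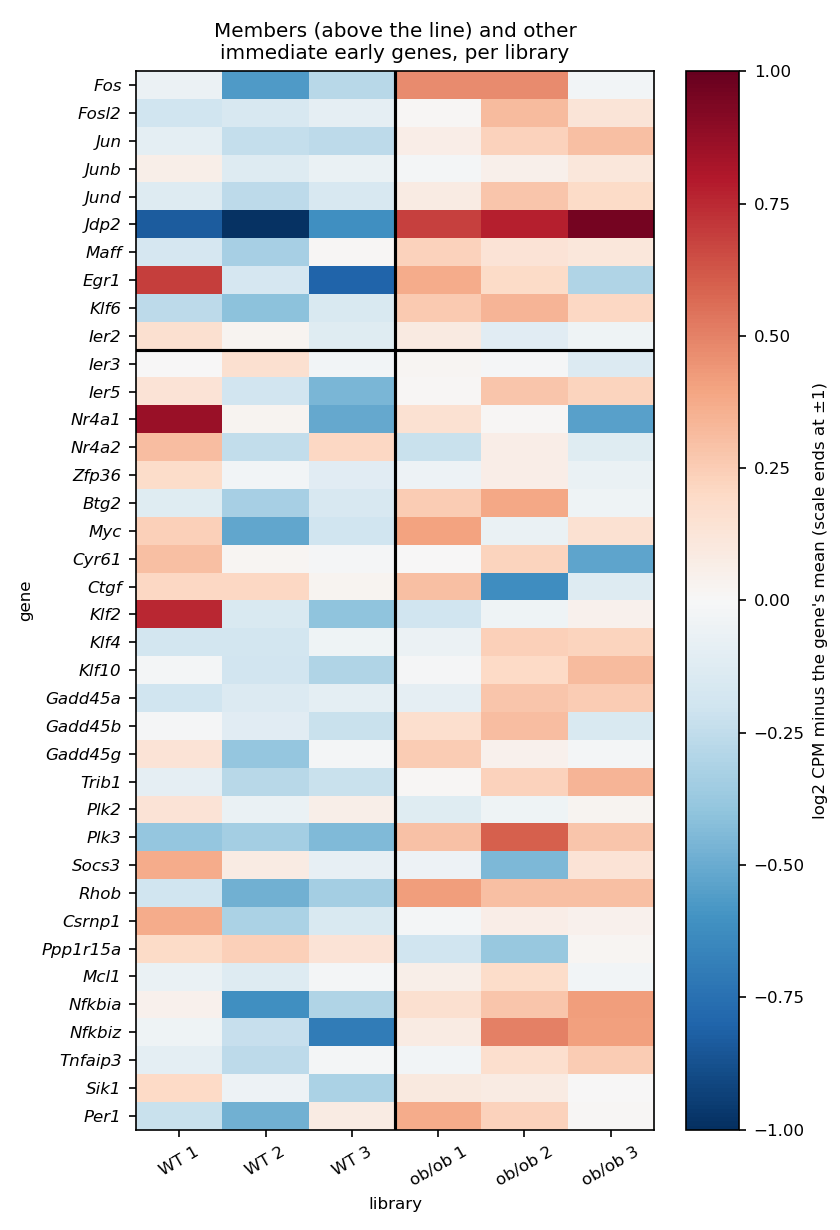
Log2 CPM of the 10 genes (above the horizontal line) and 28 other immediate early genes, each minus its own mean over the 6 libraries (colour, scale ends at ±1), with libraries as columns. Jdp2 splits by genotype, whereas Egr1, Nr4a1 and Klf2 are highest in WT 1.

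Among genes with a mean of at least 5 CPM (10414 searched), those with a profile closest to Fos over the 6 libraries, by the root mean square difference of centred log2 CPM, were Camk2b (0.0925), Shmt2 (0.0977), Slc1a4 (0.108), Il18bp (0.11) and Hbegf (0.115). Hbegf encodes a growth factor of the EGF family, and Shmt2 the mitochondrial serine hydroxymethyltransferase. Klf6 ranked 59 in likeness to Fos, the closest of the other members searched, and Jun ranked 662. Closest to Jun were Trib1 (0.0373), Cd55 (0.0433), Msr1 (0.0444), Stat3 (0.0488) and Rnf19b (0.0534). Jund ranked 14 in likeness to Jun, and Fos only 6522. Jun and Jund hence followed each other over the libraries more closely than either followed Fos.

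Among other bZIP genes, Fosb and Atf3 were higher in ob/ob. Of 12 listed relatives 9 were tested, 3 were higher and 1 was lower, and their median was 0.04 on the log2 scale. Over all tested genes 3.77% were higher and 1.91% lower, which is also the background for the lists below. Fosb, another rapidly induced Fos family gene, was measured at 4.0, 4.68 and 3.09 CPM in ob/ob and 1.86, 0.923 and 0.691 CPM in WT libraries (1.75 ± 0.33, SE, edgeR adjusted p = 0.0217). Atf3, a stress-induced partner of Jun proteins, was measured at 33.4, 27.1 and 28.1 CPM and 17.6, 10.7 and 9.78 CPM (1.21 ± 0.20, adjusted p = 0.0141). Both were clearly higher in every ob/ob library, and both were highest in WT 1 among WT. Fosb passed the low-count filter through the ob/ob libraries, with only 14 and 13 counts in WT 2 and WT 3, so its call is limited by this selection. Maf, a bZIP factor expressed in macrophages among other cells, was the 1 lower gene (-0.27 ± 0.06, adjusted p = 0.0472). No gene of this list was called lower with RLE factors, with the replicate block, or without ob/ob 1, ob/ob 2, ob/ob 3, WT 1 or WT 2, and the higher count was 1 without ob/ob 1 or ob/ob 2 and 2 without WT 2. Calls over all tested genes, 496 higher and 251 lower, also fell with most libraries left out. They were 101 and 16 without ob/ob 1, 158 and 37 without ob/ob 2, and 230 and 83 without ob/ob 3. They were 406 and 256 without WT 1 and 225 and 74 without WT 2.

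Of 34 other immediate early genes 28 were tested, 3 were higher, 0 were lower (1 at an unadjusted p under 0.05, 0 with DESeq2), and the median was 0.20. DESeq2 called 8 of them higher and voom 2, and 7 were higher without WT 1 and 2 without ob/ob 2 or WT 2. Over all 13168 tested genes, 496 were higher in the main analysis, 731 with DESeq2 and 487 with voom. Without WT 1 it was 406, without ob/ob 2 158 and without WT 2 225. Rhob, a short-lived small GTPase, went from 47.2 ± 4.53 to 75.6 ± 3.86 CPM (SD, n = 3; log2 fold change 0.68 ± 0.08, SE, edgeR adjusted p = 0.00576), and Plk3, a stress-responsive kinase, from 9.88 ± 0.326 to 17.1 ± 2.22 CPM (0.79 ± 0.11, adjusted p = 0.0102). Trib1, a pseudokinase, was higher by 0.40 ± 0.10 (adjusted p = 0.0493), and Nfkbiz, a nuclear IκB protein, just missed the threshold (0.64 ± 0.16, adjusted p = 0.0526).

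The upstream pathway was measured from ligand to kinase. Of the EGF receptor family and its ligands 9 of 10 genes were tested, and 2 were higher and 0 lower (2 lower at an unadjusted p under 0.05, 0 with DESeq2, and 3 with scaling by library size alone). Areg, the ligand amphiregulin, was at 30.5, 26.4 and 23.4 CPM in ob/ob and 4.68, 3.49 and 5.26 CPM in WT libraries (2.57 ± 0.15, SE, edgeR adjusted p = 0.000597), and Ereg, the ligand epiregulin, at 23.5, 18.2 and 13.3 CPM and 5.86, 7.38 and 6.27 CPM (1.5 ± 0.20, adjusted p = 0.00924). The receptor gene Egfr (0.25 ± 0.07, adjusted p = 0.0754) and the ligand genes Btc (0.55 ± 0.16, adjusted p = 0.0778) and Hbegf (0.56 ± 0.17, adjusted p = 0.0828) did not pass. The family did not move in one direction. Of the 9 tested genes, every ob/ob library lay above every WT library in 4. In 3, which include other receptor genes, every ob/ob library lay below. Over all tested genes these patterns were found in 15.8% and 16.2%. Of 20 kinases and transcription factors upstream of AP-1, all tested, 2 were higher, the JNK kinase gene Map2k4 (0.32 ± 0.06, adjusted p = 0.022) and the ERK kinase gene Map2k2 (0.31 ± 0.07, adjusted p = 0.0319), and 0 were lower (7 at an unadjusted p under 0.05, 0 with DESeq2). This count was not stable, with 0 higher without ob/ob 1, ob/ob 3 or WT 2, 1 higher without ob/ob 2 or WT 1, and 1 higher and 4 lower with scaling by library size alone. These are transcript levels, and phosphorylation, through which the kinases and Jun proteins act, was not measured.

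Of 13 feedback inhibitors of ERK signalling 12 were tested, 2 were higher and 0 lower (1 lower at an unadjusted p under 0.05, at an adjusted p of 0.1, with the likelihood ratio test, with either other low-count filter and with library size or upper quartile scaling), with a median of -0.02. Without ob/ob 1 the higher count was 1. Dusp6, the ERK phosphatase, was at 135, 176 and 143 CPM in ob/ob and 81.2, 90.1 and 73.8 CPM in WT libraries (0.89 ± 0.11, SE, edgeR adjusted p = 0.00728), and Errfi1, an inhibitor of the EGF receptor, went up by 0.70 ± 0.11 (adjusted p = 0.0124). Dusp4, a related phosphatase, had a log2 fold change of -0.56 ± 0.14 (adjusted p = 0.0537). The 7 genes for Jun turnover and partner proteins gave 0 calls with edgeR, DESeq2 and voom and 1 at an unadjusted p under 0.05 (median -0.05), with Cops5, a subunit of the COP9 signalosome that binds Jun, at 0.21 ± 0.08 (adjusted p = 0.147).

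Of 12 genes widely used as readouts of AP-1 8 were tested, and 0 passed the edgeR threshold in either direction (median 0.05). At an unadjusted p under 0.05, 2 were higher and 1 lower, while DESeq2 and the likelihood ratio test each called 1 higher and voom 0. The cell cycle gene Ccnd1 (0.46 ± 0.15, SE, edgeR adjusted p = 0.0987) and the collagenase gene Mmp13 (0.61 ± 0.21, adjusted p = 0.105) had the smallest p. Of 11 heat shock genes, which are induced by stress and handling of tissue, 10 were tested, 0 were higher (1 at an unadjusted p under 0.05, 0 with DESeq2) and 1 was lower, Hsph1 (-0.60 ± 0.11, adjusted p = 0.0193), with a median of -0.13. The lower count was 0 without ob/ob 2 or ob/ob 3, and 4 with scaling by library size alone.

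**Figure D5:**
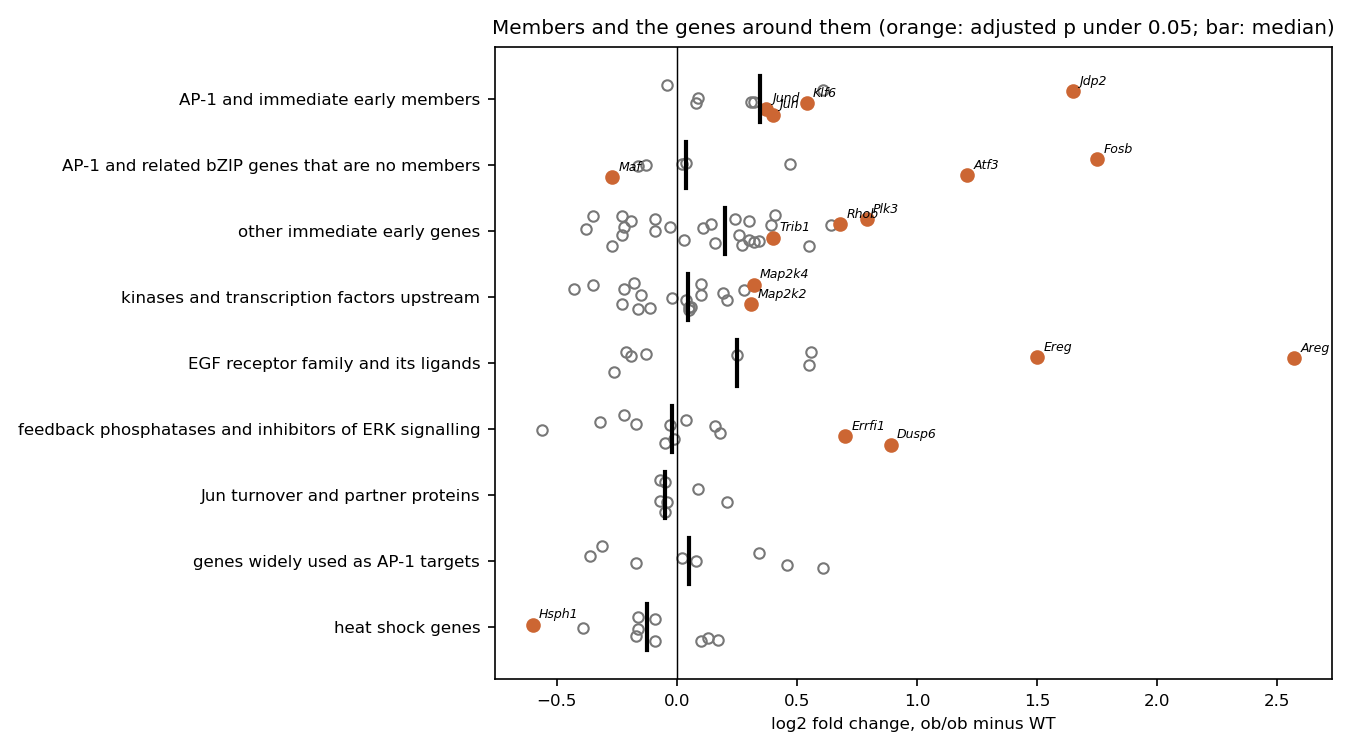
Log2 fold change (horizontal axis, ob/ob minus WT) of the 10 genes and of the tested genes in 8 lists around them, 1 point per gene (1 gene is not shown, though it counts in its list's median), orange and named where the edgeR adjusted p was under 0.05, with a bar at each list's median. The 10 genes have a median of 0.34, and Areg at 2.57 and Fosb at 1.75 lie farthest to the right. Fosb passed the low-count filter through the ob/ob libraries.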

How the data were processed

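Total RNA was isolated with TRIzol from 1 cm of washed proximal jejunum. The authors aligned reads to mm10 with TopHat2 and counted them with HTSeq 0.6p1, and named edgeR 3.4.2, per the submitters' processing notes. The deposited table holds raw counts, whole numbers of reads for each gene symbol; no source used here states the strand setting. A further 42 sample columns were left out, 12 of which belong to samples outside the series. The authors' fold changes and p-values were also left unused. Genes exceeding 1 CPM in 3 or more libraries entered a quasi-likelihood test in edgeR 4.0.16 (R 4.3.3) with TMM factors, group alone, two-sided, threshold 0.05. The SE was the log2 fold change over the square root of F. P-values reflect only how pools of 2 jejuna varied. The procedure was tested on simulated data.

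The members and gene lists were chosen with earlier results of these data known. The named genes are the 10 members, Areg and up to 4 genes with the smallest p in each of 8 lists, and the 5 genes closest in profile to Fos and to Jun; Nr4a1 and Klf2 were added after their values were seen. A selection is printed, and 1 gene of the lists is counted but not reported here. Positions are from GENCODE M21 (GRCm38, the assembly of mm10), promoters from RefSeq. Alternatives, 17 in all, covered scaling, filters, DESeq2 1.42.0, the likelihood ratio test, voom in limma 3.58.1, thresholds, a replicate block and each library left out. Figures were drawn with matplotlib 3.10.9.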

Additional observations from a re-analysis of the deposited data

How the results depend on the processing

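Jdp2 and Klf6 passed the threshold in all 17 alternatives. The 4 higher members became 6 with DESeq2, with the likelihood ratio test and at an adjusted p of 0.1, and 7 at an unadjusted p of 0.05. With 1 library left out, 2 to 5 members were higher (2 without ob/ob 2 or without WT 2), and 0 were lower under any alternative. Genes past the threshold numbered 747 (496 higher, 251 lower) in the main analysis and 1059 (731 higher, 328 lower) with DESeq2. They numbered 1404 with the likelihood ratio test, 1854 at an adjusted p of 0.1, 3409 at an unadjusted p of 0.05, and 117 to 662 with 1 library left out. Scaling by library size alone gave 1735 (328 higher, 1407 lower) and moved the median of all genes from -0.01 to -0.13, and upper quartile factors gave 390 higher and 468 lower. With library size alone, Junb was at -0.03 and Egr1 at -0.04. Egr1 ranged from -0.22 to 0.59 and Ier2 from -0.12 to 0.03 with 1 library left out. None of these sign changes was in a gene past the threshold, and the cause was not tested.

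The labels number the libraries 1 to 3 in both groups, but same-numbered libraries did not deviate together (r = -0.0826, 0.0745 and -0.0208 across genes), so the numbers were not taken as pairs. With the replicate number as a block, 730 genes passed (488 higher, 242 lower) and 5 members were higher, Fos being added (adjusted p = 0.0413). The depth leaves Jdp2 at 28 to 46 counts per WT library, the thinnest of the 10 members.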
